A study of Homo sapiens with 24 samples.

Results

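FOXP1 was silenced in OCI-Ly3, an established cell line of the activated B-cell-like (ABC) subtype of diffuse large B-cell lymphoma, and the response was read across all genes on 6 of the 24 arrays of the series. The 6 arrays were taken by their titles, 3 for siFOXP1 #1 and 3 for siFOXP1 #2. On each array RNA of cells electroporated with 1 µM of a FOXP1-targeting siRNA and harvested after 48 h carried Cy3, and RNA of OCI-Ly3 cells electroporated in the same way with a low-GC negative control siRNA (siCtrl) carried Cy5. The other 18 arrays followed the same plan in DB and K422 (germinal centre B-cell-like, GCB) and HBL-1 (ABC) cells. Dyes were not swapped, so that for any probe dye bias and silencing cannot be told apart, and the response is that of a single cell line read in bulk RNA, in which fewer cells of a type and less RNA per cell cannot be told apart.

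FOXP1 is a forkhead transcription factor that acts mainly as a repressor, pairs with FOXP2 and FOXP4, and is needed for early B-cell development. Its level falls in the germinal centre reaction and is high in many ABC lymphomas. Many ABC lymphomas depend on B-cell receptor and NF-kB signalling and differ in origin from the GCB subtype.

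Of 30142 genes, each read by its brightest probe, 15792 cleared background with both dyes on all 6 arrays, 1141 with either dye on each array, and 13209 were dim. The first 2 classes are called measured below. Between 60.4% and 64.5% of an array's probes cleared background with either dye. Among marker genes of the line the B-cell genes MS4A1, CD79A, CD79B, PAX5 and CD22 and the ABC genes IRF4, CCND2, PIM1, CD44 and BATF were bright with both dyes on every array, as were the germinal centre genes LMO2 and BCL6, while MME (CD10) was dim. The other germinal centre markers checked cleared background with either dye on each array. CD3D, NKG7, LYZ and MPO, markers of T and NK cells or myeloid cells, were dim, although CD3E and CSF1R were bright. Not all markers checked are named. In a wider list of 17 T and NK cell genes 13 were dim, 3 bright with both dyes and 1 with either dye on each array. Of 15 myeloid genes 13 were dim, 1 bright with both dyes and 1 with either.

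The FOXP1 transcript was lower on every array. Its probe lies on chromosome 3 of hg18 from 71091098 to 71091157. The log2 ratio of siFOXP1 to siCtrl, in which a step of 1 is 2-fold, was -1.48, -1.39 and -1.56 with siFOXP1 #1 and -2.51, -2.34 and -2.50 with #2 in replicates 1, 2 and 3. The values of the 2 siRNAs did not overlap, and the mean was -1.96 ± 0.54 (SD, n = 6 arrays, limma adjusted p = 2.42e-11). FOXP4, the partner of the same family, rose by 0.54 on average (range over arrays 0.17 to 0.72, limma adjusted p = 2.57e-05), a call that was lost without replicate 1 (0.47).

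Silencing was followed by more rises than falls. Genes were called at a limma adjusted p under 0.05 and a log2 change of at least 0.5 in either direction. Among the 16932 measured genes with a tested ratio 511 were higher (3.02%) and 219 lower (1.29%), and 473 and 208 of them went the same way on all 6 arrays. Among the genes bright in both channels 393 rose (2.49%) and 197 fell (1.25%). Over all 30141 genes tested, dim ones included, the calls were 845 higher (2.8%) and 487 lower (1.62%), and the dim genes held 334 and 268 of these, whose ratios rest on signals near background. Changes were small. The median of the called measured genes was 0.66 for rises and -0.60 for falls, and 84.9% of the rises and 91.8% of the falls stayed under 2-fold. Background correction by normexp with loess left 237 higher and 71 lower measured genes at the same limit, and normexp with median centring left 147 and 120, a more even split.

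**Figure D1:**
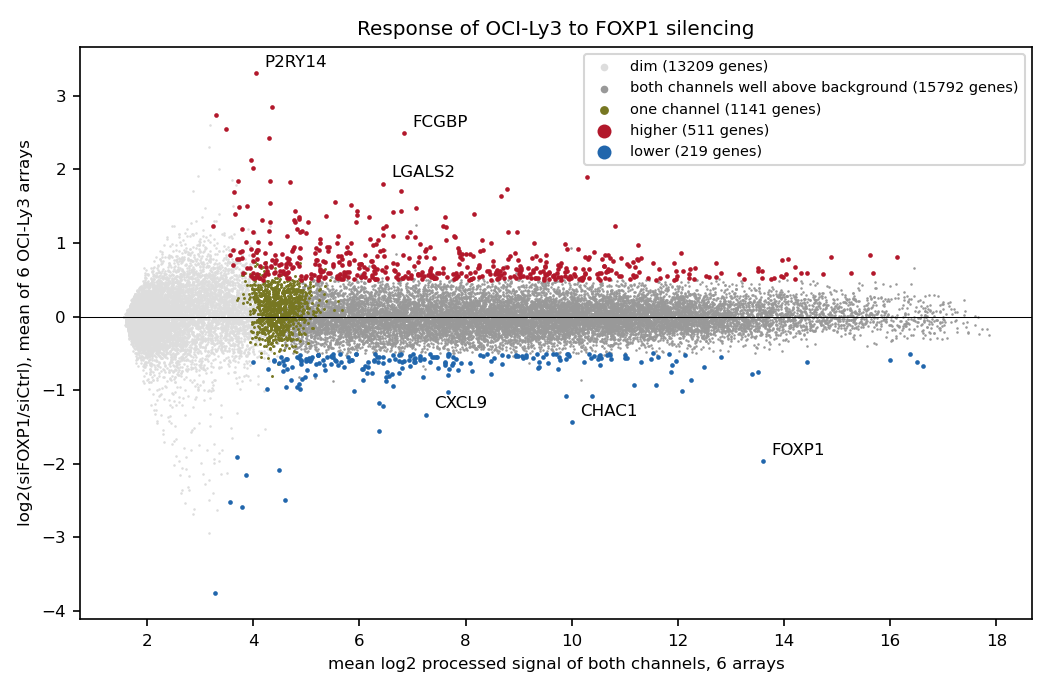
Mean log2(siFOXP1/siCtrl) of the 6 OCI-Ly3 arrays (vertical axis) against the mean log2 processed signal of both channels (horizontal axis), with a point for each gene. Red points are the 511 genes called higher and blue points the 219 called lower, olive points are genes seen in one channel, pale grey points are dim genes, and FOXP1, labelled at a mean of -1.96, lies apart from other falls of its signal.

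The 12 greatest rises among genes bright in both channels included Fc-binding, adhesion, lipid and receptor proteins. FCGBP, a protein that binds the Fc part of IgG, gave 1.98, 2.25 and 2.17 with siFOXP1 #1 and 2.52, 3.46 and 2.59 with #2. C1orf38, now called THEMIS2, an adaptor of lymphocyte and macrophage signalling, gave 1.65, 2.01 and 1.95 and 1.68, 2.03 and 2.05. The values of C1orf38 overlapped between the siRNAs, while those of FCGBP were all higher with #2. LGALS2, which encodes galectin-2, rose by 1.81 ± 0.44 (SD, n = 6, limma adjusted p = 3.62e-06), and FCRL5, an Fc receptor-like protein of B cells, by 1.73 ± 0.33 (limma adjusted p = 1.25e-05). The adhesion molecules CADM1 and CDH13 rose by 1.71 ± 0.30 and 1.51 ± 0.31. Every siFOXP1 #2 array also exceeded every #1 array for CADM1, LGALS2, FCRL5 and, of the genes named below, GRAMD1C, MBOAT1, S1PR1 and GRM8. S1PR1, for example, had 0.63, 1.41 and 1.30 with #1 and 1.67, 1.88 and 1.72 with #2. For CDH13 the order was the reverse, with 1.95, 1.81 and 1.55 for #1 and 1.20, 1.27 and 1.31 for #2. The test of the siRNA difference did not pass for FCGBP, CADM1 or CDH13 (limma adjusted p = 0.776, 0.962 and 0.778). Nor did it pass for LGALS2, FCRL5, GRAMD1C, MBOAT1, S1PR1 or GRM8 (limma adjusted p from 0.208 to 0.942). Lipid enzymes and carriers formed the next set, with MBOAT1, a lysophospholipid acyltransferase, at 1.47 ± 0.19, HPGD, which inactivates prostaglandins, at 1.43 ± 0.27, and GRAMD1C, a sterol transfer protein of the endoplasmic reticulum, at 1.64 ± 0.33. Receptors were S1PR1, through which lymphocytes follow sphingosine-1-phosphate out of tissue, at 1.43 ± 0.45, and the metabotropic glutamate receptor GRM8 at 1.43 ± 0.44. LHFPL2, a membrane protein, was the steadiest of the 12, with values from 1.32 to 1.48.

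Of the 12 greatest falls, 10 carry a gene symbol. CHAC1, which degrades glutathione, gave -1.91, -1.10 and -2.34 with siFOXP1 #1 and -1.63, -0.25 and -1.34 with #2, so that replicate 2 was the weakest in both sets (mean -1.43 ± 0.72, SD, n = 6, limma adjusted p = 0.0136). CXCL9, a chemokine for T cells, gave -1.32, -1.44 and -1.48 and -1.16, -1.35 and -1.24, with no array near 0 (mean -1.33 ± 0.12, limma adjusted p = 2.30e-05). SLC7A11, the cystine-glutamate exchanger, was as uneven as CHAC1, ranging from -2.30 to -0.16, and its adjusted p of 0.00491 became 0.0688 in limma on the 6 OCI-Ly3 arrays alone. The amino acid enzymes PSAT1, of serine synthesis, and BCAT1, a branched-chain aminotransferase, changed by -1.01 ± 0.50 and -0.93 ± 0.15. IL1R2, a decoy receptor for interleukin-1, changed by -1.08 ± 0.12, and HES1, a repressor induced by Notch, by -1.07 ± 0.41. The angiogenic factor VEGFA changed by -1.02 ± 0.26, the growth cone protein GAP43 by -1.01 ± 0.30 and the kinesin KIF26B by -0.94 ± 0.42. In KIF26B the 2 siRNAs did not overlap (-1.35, -1.31 and -1.26 for #1 and -0.38, -0.81 and -0.55 for #2). Nor did they overlap in HES1 (-0.91, -0.73 and -0.70 for #1 and -1.79, -1.28 and -1.02 for #2). The tests of these differences gave limma adjusted p of 0.776 and 0.973. Taken singly in the fit of all 24 arrays, #2 missed the threshold for CHAC1, SLC7A11, PSAT1 and KIF26B (limma adjusted p = 0.276, 0.195, 0.192 and 0.189). In the same fit #1 missed it for HES1 (0.218). CXCL9, IL1R2, VEGFA, GAP43 and BCAT1 passed with each siRNA. HES1 missed the threshold without replicate 1 (-0.93) and without replicate 2 (-1.11), CHAC1 without replicate 1 (-1.26) and without replicate 3 (-1.22), and SLC7A11 and PSAT1 without replicate 1 (-0.81 and -0.76). The remaining falls, BM807051 and LOC729779, have array names that are no gene symbols.

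**Figure D2:**
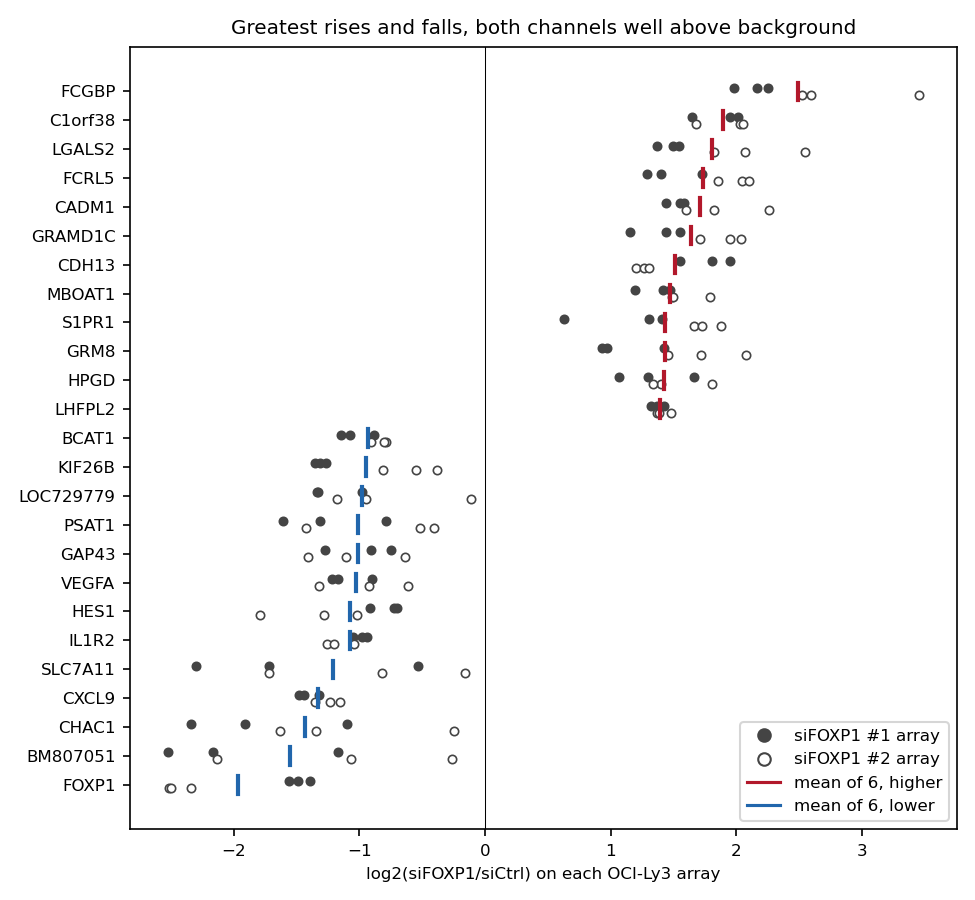
Log2(siFOXP1/siCtrl) on each OCI-Ly3 array (horizontal axis) for FOXP1, the 12 greatest rises and the 12 greatest falls of genes above background in both channels, with filled points for siFOXP1 #1, open points for siFOXP1 #2 and a bar at the mean of 6. FOXP1 splits by siRNA, LHFPL2 and CXCL9 are tight, and CHAC1 and SLC7A11 reach from -0.25 and -0.16 to beyond -2.

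Some of the largest ratios belong to genes seen in a single channel and are bounds only. P2RY14, a receptor for UDP-sugars, was well above background in silenced cells on 6 arrays and in control cells on none, and its ratios ran from 1.96 to 4.86. Set against the detection floor, or its own control signal where that was higher, it was at least 1.58-fold higher. The limma adjusted p of its ratio was 1.03e-09, and 0.00486 on the 6 arrays alone. No bound was itself tested. In the same way CNKSR3, a scaffold protein, was at least 1.55-fold higher. The actin-like gene ACTL8 was at least 1.27-fold higher and ZYG11A, a subunit of a ubiquitin ligase, at least 1.25-fold. The limma adjusted p of their ratios was at most 1.57e-05, and at most 0.0143 on the 6 arrays alone, both values of ACTL8. Each bound is the mean of the bright channel over a floor set per array at the lowest signal among probes well above background, or the probe's own where higher. The signals behind the bounds were corrected by normexp (offset 50) with loess and scaled between arrays, unlike the ratios. In the other direction TMPRSS2, a membrane serine protease, was well above background in control cells on 6 arrays and in silenced cells on none. It was at least 1.16-fold lower after silencing (limma adjusted p of its ratio = 1.15e-06).

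Of the 41 genes of the integrated stress response on the array 10 were lower and 0 higher, unevenly between replicates. This programme lowers general translation and, through ATF4, raises genes of amino acid uptake and synthesis. The lower genes were 24.4% of the list against 1.62% of all genes, and the median over the 41 was -0.38 against 0 over all genes. This list and those below were chosen with earlier results of these data known, so that their shares are descriptive only. ATF4 itself gave -0.69, -0.39 and -0.81 with siFOXP1 #1 and -0.64, -0.07 and -0.48 with #2 (limma adjusted p = 0.0191). CHAC1, described above, was the lowest. The transporters SLC7A11, SLC7A5 and SLC7A1 changed by -1.21, -0.61 and -0.57, the enzymes PSAT1, MTHFD2 and ASNS by -1.01, -0.78 and -0.76, the glycyl-tRNA synthetase GARS by -0.61 and the lipoprotein receptor VLDLR by -1.17. VLDLR ranged from -2.46 to 0.20, and on the 6 arrays alone VLDLR and SLC7A11 missed the threshold (limma adjusted p = 0.0841 and 0.0688). The remaining 31 genes did not pass. A second SLC7A1 probe, bright in both channels on all 6 arrays, gave -0.10, and a second such ATF4 probe gave -0.42. A second ASNS probe, above background in silenced cells on 4 arrays and in control cells on 1, gave 0.19. With the mean over probes 7 members were lower. In the 36 members above background in both channels the median per array was -0.74, -0.23 and -0.40 in replicates 1, 2 and 3 of siFOXP1 #1 and -0.69, -0.02 and -0.30 in those of #2. Replicate 1 was thus the lowest and replicate 2 the nearest to 0 with either siRNA. Without replicate 1 VLDLR was the 1 gene of the 41 that passed (-0.71, with ATF4 at -0.44 and ASNS at -0.52), while leaving out replicate 3 left 7 and leaving out replicate 2 gave 12. Both arrays of replicate 1 shared a slide with arrays of DB and those of replicates 2 and 3 lay on another slide, so that slide and replicate cannot be told apart here. With slide as a block 10 members were called. With the arrays of siFOXP1 #1 alone 1 member was called lower and with those of #2 alone 0 (limma, 3 OCI-Ly3 arrays each), at medians of -0.40 and -0.35. The list of the unfolded protein response, to stress in the endoplasmic reticulum, and of the secretory pathway had 1 member lower of 41. The lower member was EDEM1 (-0.54, limma adjusted p = 0.00255), and the median of that list was 0.03.

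Promoter sequence was set beside these changes. Promoter windows of RefSeq, from 250 bases before to 50 after the start on GRCh38.p14, were available for 9386 of the 15792 genes bright in both channels. The letters TGATGNAA, of the element that ATF4 binds with its partners, occurred on either strand in 8 of 102 windows of genes that fell (7.84%), in 4 of 256 of genes that rose (1.56%), in 1.74% of the 9386 and in 3.67% of all 27305 windows. The 8 genes were CHAC1, BCAT1, ASNS, C1orf54, RNF182, SLC7A1, GOT1 and FIGNL1. Within the stress list the letters were in 3 of 9 windows of genes that fell and in 7 of 26 of genes that did not pass. The forkhead letters TGTTTAC and TGTTTAT, which differ in their last letter and cannot start where the first motif starts, were in 18 of 256 windows of genes that rose (7.03%), 5 of 102 of genes that fell (4.9%), 4.07% of the 9386 and 7.48% of all windows. Of the 12 greatest rises 9 had a window, and GRAMD1C alone held a match. A match describes the letters only. The windows of CHAC1 (chr15:40953221-40953520, plus strand), ASNS (chr7:97872359-97872658, minus strand) and GRAMD1C (chr3:113897250-113897549, plus strand) are shown, the first pair because they are the stress genes that fell with a match before the start, and the last as the one of the 12 greatest rises with a forkhead match. Capitals mark the match.
CHAC1: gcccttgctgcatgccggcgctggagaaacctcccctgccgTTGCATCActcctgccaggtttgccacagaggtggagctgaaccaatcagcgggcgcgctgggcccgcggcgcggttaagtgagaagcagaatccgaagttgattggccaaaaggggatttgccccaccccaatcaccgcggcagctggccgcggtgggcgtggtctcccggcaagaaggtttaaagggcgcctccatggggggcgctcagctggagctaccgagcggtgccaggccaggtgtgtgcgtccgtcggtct
ASNS: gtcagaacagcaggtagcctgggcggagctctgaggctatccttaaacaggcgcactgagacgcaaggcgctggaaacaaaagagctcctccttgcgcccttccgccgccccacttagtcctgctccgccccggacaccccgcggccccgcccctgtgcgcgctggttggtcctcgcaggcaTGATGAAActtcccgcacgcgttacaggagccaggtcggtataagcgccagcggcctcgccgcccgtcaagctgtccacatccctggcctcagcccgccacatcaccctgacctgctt
GRAMD1C: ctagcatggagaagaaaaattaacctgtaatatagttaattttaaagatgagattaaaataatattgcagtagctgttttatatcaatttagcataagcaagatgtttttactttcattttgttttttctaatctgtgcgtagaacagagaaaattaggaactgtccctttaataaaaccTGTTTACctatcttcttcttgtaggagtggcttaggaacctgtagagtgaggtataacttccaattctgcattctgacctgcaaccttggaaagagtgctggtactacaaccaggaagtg

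Calls among antigen presentation, Fc-binding and B-cell surface genes were all rises. Of 17 genes of MHC class II 10 were higher and 0 lower (58.8% against 2.8% of all genes, median 0.55), among them HLA-DMB, which loads peptides, with values from 0.66 to 0.89, and HLA-DQB2 with 0.66 to 1.15. HLA-DRB1, HLA-DRB3, HLA-DRB4 and HLA-DRB5 resemble each other so closely that a probe may read several, which leaves their 4 calls uncertain as separate genes. The count of the list fell to 4 under normexp with median centring (median 0.36) and to 4 with siFOXP1 #2 alone (median 0.43), against 11 with #1 alone (0.67). In HBL-1, the other ABC line, the median of the list was 0.40, and in DB and K422 it was -0.14. Of 21 MHC class I genes 0 passed (limma), with a median of 0.11 and a greatest value of 0.39 among those bright in both channels. Of the 12 Fc receptor-like and Fc-binding genes 4 rose, FCGBP and FCRL5 as above and the dim FCRL3 and FCRL4 (33.3%, median 0.29). Among 36 B-cell surface antigens 4 rose (11.1%, median 0.25). With normexp and median centring 2 of the Fc-binding genes and 1 of the surface antigens were called. CD180, a Toll-like receptor homologue of B cells, gave 1.10, 0.89 and 0.89 with siFOXP1 #1 and 1.22, 1.36 and 1.06 with #2 (limma adjusted p = 2.56e-04). MS4A1, which encodes CD20, was at 0.64 ± 0.06 (SD, n = 6, limma adjusted p = 4.02e-06) with little spread. FCER2 (CD23) and CD24 were uneven between the siRNAs, FCER2 with 0.80, 0.75 and 0.91 for #1 against 0.19, 0.30 and 0.10 for #2, and CD24 with 0.20, 0.32 and 0.32 against 1.36, 0.92 and 1.05. The test of the siRNA difference passed for CD24 (limma adjusted p = 0.0372) and not for FCER2 (0.183). The files place the CD24 probe at a copy of the gene, so that copies cannot be told apart.

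Among 39 genes of B-cell receptor signalling 5 rose and 0 fell (12.8% against 2.8% and 1.62% of all genes, median 0.09). PIK3R5, a regulatory subunit of phosphoinositide 3-kinase, was at 0.95 ± 0.21 (limma adjusted p = 0.00158), PIK3R1, another such subunit, at 0.66 ± 0.16 (1.48e-07), the transcription factor NFATC1 at 0.73 ± 0.15 (2.31e-07) and CSK, an inhibitor of Src kinases, at 0.53 ± 0.11 (7.51e-05), which missed the threshold without replicate 2 (0.49). FGR was the fifth and was dim. In the NF-kB list 2 of 31 rose (6.45%), LTB (0.84) and IL6 (0.77), both on 6 of 6 arrays, and the median was 0.12. Of 43 B-cell and plasma cell transcription factors 4 rose (9.3%), among them FOXP4 as above, KLF2, a factor of lymphocyte quiescence, at 0.60, and the dim BACH2. KLF2 was lost without replicate 2 (0.56) and without replicate 3 (0.49). In 30 GCB-signature genes 5 rose and 0 fell (16.7%, median 0.20), the steadiest being DENND3 with 0.64 to 0.76 and the others VNN2, NEIL1, KCNN3 and LPP, of which LPP was lost without replicate 3 (0.46). With siFOXP1 #1 alone 1 GCB gene was called, with #2 alone 5 and with the mean over probes 3. Normexp with median centring called 2 genes of the receptor signalling list, 2 of the transcription factors and 2 of the GCB signature. In 27 ABC-signature genes 1 fell, the cell cycle gene CCND2, with -0.79, -0.79 and -0.84 and -0.45, -0.43 and -0.29. Its limma adjusted p of 0.0195 missed the threshold without replicate 1 (-0.59), 2 (-0.59) or 3 (-0.61), and the median of that list was 0.09.

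Chemoattractant genes moved in both directions. Of 49 chemokines and receptors 3 rose and 5 fell (6.12% and 10.2%, against 2.8% and 1.62% of all genes), and 2 of the list were lower under either normexp setting. Beside P2RY14 and S1PR1 the riser was CXCL13, the chemokine of B-cell follicles, with 0.91, 0.87 and 0.99 for siFOXP1 #1 and 0.65, 0.68 and 0.74 for #2 (limma adjusted p = 2.05e-08). The falls included CXCL9, CCL5, a chemokine for T cells and monocytes, at -0.64 ± 0.08, and the receptors CCR2 at -0.76 ± 0.31 and CXCR3 at -0.56 ± 0.40. CXCR3 had -0.63, -0.97 and -1.02 with siFOXP1 #1 against 0.03, -0.40 and -0.35 with #2, and its call was lost without replicate 2 (-0.49) and without replicate 3 (-0.49). The test of its siRNA difference gave a limma adjusted p of 0.443, and of 0.184 with the replicate as a block, which pairs the arrays. CCR2 was lower on every array of siFOXP1 #2 than on any of #1, with a limma adjusted p of that difference of 0.672. Of 42 interleukins and receptors 4 rose (9.52%). They included IL6, the interleukin-10 receptor chain IL10RA (0.51, lost without replicate 3 at 0.48) and IL15, a growth factor of NK cells. IL15 was at 0.68, and lost without replicate 2 at 0.66 and without replicate 3 at 0.55. IL21, a cytokine of helper T cells, was well above background in silenced cells on 6 arrays and in control cells on 1. Its ratios, from 1.30 to 3.77, thus rest on a control near background. In 23 JAK, STAT and SOCS genes 0 passed (limma), with a median of 0.06.

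Of 54 actin and leading edge genes 11 were higher and 0 lower (20.4% against 2.8% of all genes, median 0.19). CTTN (cortactin), which stabilises branched actin, gave 1.25, 1.38 and 1.27 with siFOXP1 #1 and 0.65, 0.81 and 0.68 with #2 (limma adjusted p = 9.58e-07), so that #1 was higher on every array. The test of the siRNA difference of CTTN did not pass (limma adjusted p = 0.355). The myosin MYO1G was at 0.88 ± 0.16 and the cross-linker FLNA at 0.80 ± 0.17. GSN (gelsolin), which severs filaments, was at 0.78 ± 0.22, the focal adhesion protein PARVG at 0.74 ± 0.33 and ZYX (zyxin) at 0.68 ± 0.18. The others were VASP, CFL1, LPP, HIP1R and EZR, from 0.52 to 0.62. Each fit that left out a replicate number called 10 members higher, though not the same ones. Normexp with median centring called 6 and the mean over probes 9. The call of EZR was lost without replicate 1 (0.45), of PARVG without replicate 2 (0.65) and of HIP1R and LPP without replicate 3 (0.50 and 0.46). A second EZR probe, bright in both channels, gave 0.14. Other MYO1G probes bright in both channels gave 0.85 and 0.35, and a second such LPP probe gave 0.40. Among 46 integrins and adhesion molecules 5 rose and 2 fell (10.9% and 4.35%, against 2.8% and 1.62% of all genes). The rises were CADM1, the integrin chain ITGAX (CD11c, 0.62), the semaphorin SEMA4A (0.59), the junction protein F11R (0.51) and the dim PECAM1, with ITGAX lost without replicate 2 (0.65) or 3 (0.51) and F11R without replicate 1 (0.50). The falls were ALCAM (-0.58) and ITGB3, in which silenced cells were well above background on 5 arrays. Of 28 RGS and G protein genes RGS1 and GNAI2 rose by 0.66 and 0.59 (7.14% higher) and RGS2 was lower (-0.51, 3.57% lower). RGS2 missed the threshold without replicate 1 (-0.48). RGS1 missed it without replicate 1, 2 or 3 (0.78, 0.62 and 0.59) and with the replicate as a block.

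Of 51 interferon-stimulated genes 8 rose and 0 fell (15.7% against 2.8% and 1.62% of all genes, median 0.12), and 5 were called under either normexp setting and with siFOXP1 #1 alone. The guanylate-binding proteins GBP2 and GBP4 gave 0.93 ± 0.18 and 0.92 ± 0.33 (limma adjusted p = 5.89e-06 and 1.56e-05). EPSTI1 was at 0.87 ± 0.20, OAS1, a sensor of double-stranded RNA, at 0.80 ± 0.29, SAMD9L at 0.68 ± 0.20 and the exonuclease ISG20 at 0.59 ± 0.18. OAS2 and IFIT2 were uneven. OAS2 had -0.12, 0.43 and 0.17 for siFOXP1 #1 and 1.41, 1.07 and 0.06 for #2, and was not called on the 6 arrays alone (limma adjusted p = 0.184), with the replicate as a block, or without replicate 1 (0.43) or 2 (0.38). IFIT2 ranged from 0.04 to 1.91 and was lost without replicate 2 (0.79) or 3 (0.72). In the list of RNA silencing machinery and sensors 2 of 24 rose (8.33%), TNRC6B, a partner of Argonaute proteins, and the dim TLR8. TNRC6B was at 0.50, and lost without replicate 1 (0.50) and without replicate 2 (0.44). Other TNRC6B probes bright in both channels gave 0.21, 0.28 and 0.28.

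The counts below are to be set against 2.8% of all genes higher and 1.62% lower. Near those shares were cell cycle genes lower (1.43%) and p53 targets, immediate early genes and costimulatory ligands higher (3.45%, 3.23% and 3.7%). Of 70 cell cycle and DNA replication genes CCND2 alone fell and 0 rose (median -0.12). Of 32 histone genes the 3 histone H4 copies HIST1H4C, HIST1H4D and HIST1H4L were lower (9.4%), between -0.62 and -0.68. As close copies they may not be told apart by their probes. Of 45 respiratory chain genes 0 passed (limma, median -0.05). Of 24 BCL2 family genes BCL2L10 fell (-0.59), a call that was lost without any one of the 6 arrays and without replicate 1, 2 or 3 (-0.51, -0.61 and -0.63), and of 29 p53 targets TP53INP1, a stress-induced regulator of autophagy, rose by 1.15 ± 0.24 (limma adjusted p = 5.05e-05). In 33 KLF, FOXO and quiescence factors 4 rose, KLF2, the dim KLF3, FOXO4 (0.67, with control cells above background on 4 arrays) and SESN3, a sestrin that restrains mTORC1, at 0.72 ± 0.19. Of 39 Wnt and axin feedback genes 0 passed (limma, median 0.08). Of 35 glycolysis and hypoxia genes PFKFB3, which drives glycolysis, rose by 0.84 ± 0.21, as did the dim P4HA2, and VEGFA fell. Other PFKFB3 probes bright in both channels gave 0.94, 0.78 and 0.27. Of 36 sterol and fatty acid genes the mevalonate enzyme MVD rose by 0.53, and ABCA1, a cholesterol exporter, was above background in silenced cells only. Of 37 lysosomal genes 3 rose (8.11%), among them the protease LGMN (0.78) and the glucosidase GAA (0.56). LGMN missed the threshold with the replicate or slide as a block and without replicate 1, 2 or 3 (0.80, 0.74 and 0.78). Of 27 costimulatory and checkpoint ligands the receptor TIGIT was lower (-0.55), as was the dim VTCN1, lost with the replicate as a block, and PDCD1LG2 (PD-L2) was higher (0.58), lost without replicate 2 (0.36) and on the 6 arrays alone. Of 31 immediate early genes the dim EGR2 was called higher, and no gene of the list was called with the replicate or slide as a block, with either siRNA alone or under either normexp setting (limma). Among markers of other cells there were 1 higher and 1 lower (the dim GZMA, lost with the replicate as a block) of 17 T and NK cell genes, of which 13 were dim, 1 higher of 15 myeloid genes, of which 13 were dim, and 2 higher of 17 stromal, epithelial and erythroid genes, of which 14 were dim.

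**Figure D3:**
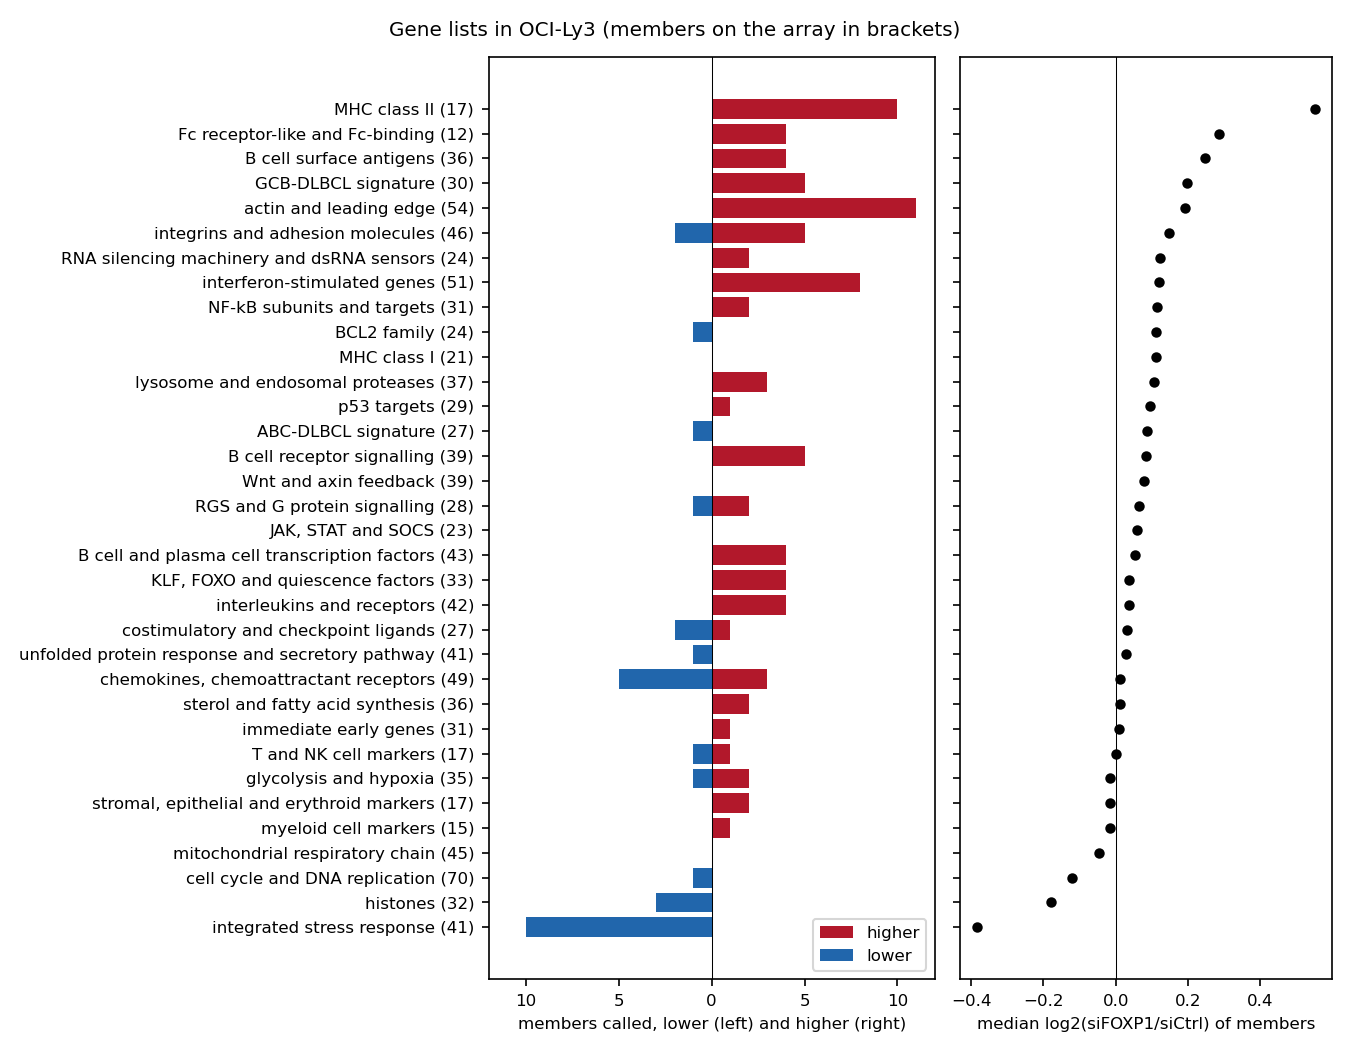
Left, number of members called higher (red) or lower (blue) in OCI-Ly3 in each of 34 gene lists, with the members on the array in brackets. Right, the median log2(siFOXP1/siCtrl) over those members, from 0.55 for MHC class II to -0.38 for the integrated stress response.

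The 2 siRNAs were compared on each gene directly. The labels list a control for each array, and do not state whether arrays of the same number shared control RNA. On its own siFOXP1 #1, the weaker of the 2 on FOXP1, called 536 higher and 302 lower genes in the joint fit, and siFOXP1 #2 called 375 and 142. The difference between them passed for 34 of 16932 genes above background (0.201%), 25 with the higher ratio for #2 and 9 with the higher ratio for #1, and with the replicate number as a block, which pairs the arrays, for 70. On the 6 arrays alone it passed for 1 gene, which is none of those named here, and 11 of the 34 were among the 730 genes called for silencing. FST (follistatin), which binds activins, had 1.15, 1.32 and 1.67 for #1 and -0.05, 0.25 and 0.32 for #2 (limma adjusted p of the difference = 5.30e-04). FN1 (fibronectin) had 0.71, 1.01 and 0.86 and -0.03, 0.03 and -0.02 (1.51e-06), ODZ4, a teneurin, 1.25, 1.13 and 0.51 and 0.09, 0.13 and -0.19, and the sugar transporter SLC45A1 0.63, 1.14 and 0.77 and -0.00, 0.20 and 0.13. In these genes the arrays of siFOXP1 #1 were all above those of #2. In the other lines their probes cleared background on 7 of 18 arrays for FST and on 0 of 18 for FN1, ODZ4 and SLC45A1, and none of the 4 differences passed with ratios of exactly 0 left out of the fit. CHCHD3, of the mitochondrial inner membrane, had -0.65, -0.65 and -0.69 with siFOXP1 #2 against -0.01, -0.13 and -0.05 with #1 (limma adjusted p of the difference = 3.56e-04). In the opposite direction KAT2B, a lysine acetyltransferase, had -1.10, -1.06 and -1.06 with siFOXP1 #1 and -0.35, -0.24 and 0.12 with #2 (limma adjusted p of the difference = 0.0118), and KMO, of tryptophan breakdown, had -0.58, -0.32 and -0.66 against 0.43, 0.51 and 0.34. EIF2C4 (AGO4), an Argonaute protein, CLMN and CD24 were likewise higher with #2. A second KAT2B probe, bright in both channels, had a mean of -0.22 over the 6 arrays, against -0.61 for the probe used.

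**Figure D4:**
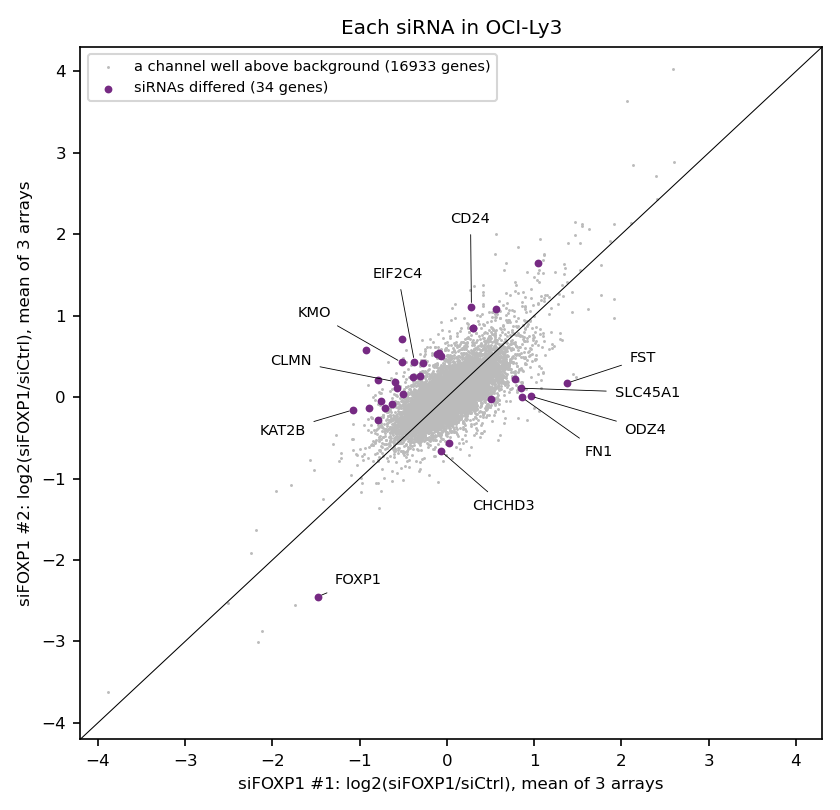
Mean log2(siFOXP1/siCtrl) of the 3 arrays of siFOXP1 #1 (horizontal axis) against that of siFOXP1 #2 (vertical axis) for the 16933 measured genes, with the 34 genes whose siRNA difference passed in purple and a line of equal values. FOXP1 lies below the line, as do FST, FN1, ODZ4, SLC45A1 and CHCHD3, and KAT2B, KMO, EIF2C4, CLMN and CD24 lie above it.

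Set against the mean of DB, K422 and HBL-1, OCI-Ly3 differed in 319 of its measured genes, with 229 above the other lines (1.35%) and 90 below (0.532%). Only 142 of these, 101 above and 41 below, were also above background on all 18 arrays of the other lines, and for the rest a ratio near 0 elsewhere can come from a dim probe. FCGBP cleared background on all 24 arrays and stood at 2.49 in OCI-Ly3 against 0.53 in K422, 0.37 in HBL-1 and 0.26 in DB. C12orf42 rose by 0.53 in OCI-Ly3 and was lower in K422 (-3.88), DB (-3.71) and HBL-1 (-0.46), but both its channels cleared background on 6 of those 18 arrays only, so that the size of this difference rests on a dim channel. DAAM1, a formin, was lower in OCI-Ly3 (-0.51) and at 1.04 in HBL-1 and 0.86 in K422, and IGJ (JCHAIN), which joins IgM and IgA units, was at 0.40 in OCI-Ly3 and 3.33 in HBL-1. CXCR4, a chemokine receptor, had -0.22 in OCI-Ly3, which did not pass (limma adjusted p = 0.423), and 2.43 in HBL-1. CXCL9 was well above background on 0 of the 18 other arrays.

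The calls in OCI-Ly3 were set beside those of the other lines, each of which had its own controls. Over the 14252 genes above background on all 24 arrays, 279 were higher and 142 lower in OCI-Ly3. Of the 279, 141 were also higher in HBL-1, the other ABC line (50.5% against 6.88% of all 14252), 68 in K422 (24.4% against 1.69%) and 43 in DB (15.4% against 0.933%). These made up 14.4%, 28.2% and 32.3% of the higher genes of HBL-1, K422 and DB. Of the 142 lower genes 66 were also lower in HBL-1 (46.5% against 4.15%), 23 in K422 (16.2% against 1.52%) and 24 in DB (16.9% against 0.47%), which were 11.1%, 10.6% and 35.8% of the lower genes of those lines. The median of the 279 was 0.59 in OCI-Ly3, 0.26 in K422, 0.28 in DB and 0.51 in HBL-1. LHFPL2, C1orf38 and GRAMD1C, for example, were at 3.63, 1.01 and 1.75 in HBL-1. The median of the stress list was 0.06 in K422, -0.15 in DB and -0.27 in HBL-1. Silenced RNA carried the same dye on all 24 arrays, so that shared dye bias and a shared response cannot be told apart in these shares.

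**Figure D5:**
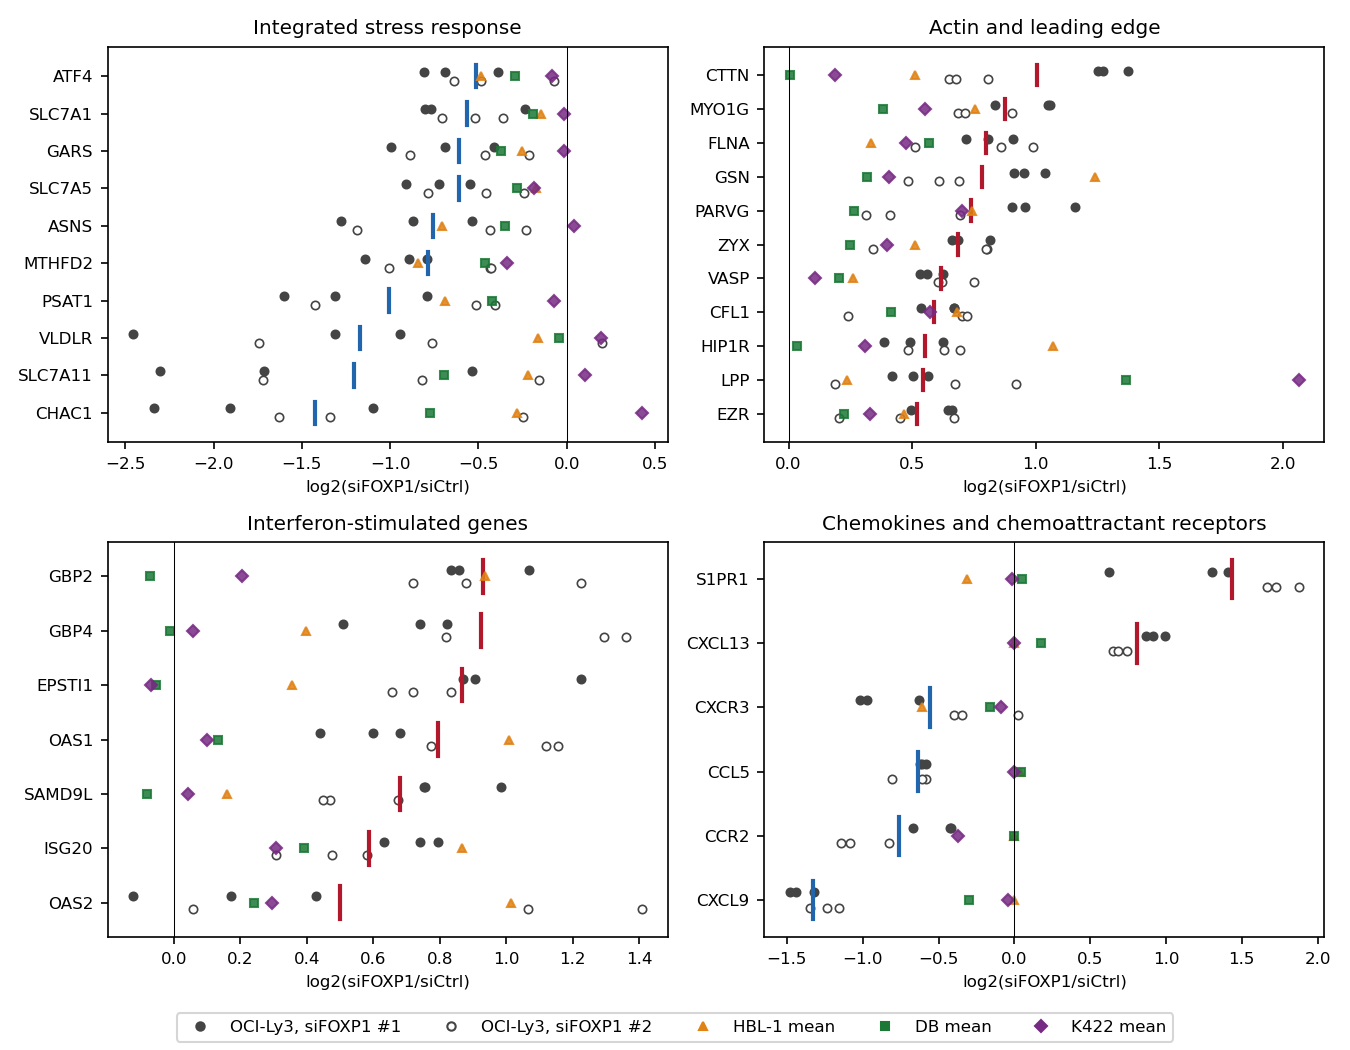
Log2(siFOXP1/siCtrl) of called members of 4 lists that were above background in both channels, with filled and open points for the arrays of siFOXP1 #1 and #2 in OCI-Ly3, a bar at their mean, and triangles, squares and diamonds for the means of HBL-1, DB and K422. The stress genes spread widely between arrays, with VLDLR above 0 on 1, and CTTN is higher with siFOXP1 #1 on every array.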

How the data were processed

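Total RNA of silenced and control OCI-Ly3 cells was hybridised to 2-colour Agilent whole-genome arrays. The authors scanned them with Feature Extraction (version 10.5.1.1 for OCI-Ly3 and DB, 10.7.3.1 for the other lines, per the file headers) and deposited its output, which holds intensity values for both dyes of a spot and the log10 of Cy5 divided by Cy3, normalized inside each array by a linear and a lowess step. The authors also deposited a log2 matrix made in GeneSpring, used as an alternative. It ran with log2 of Cy3 over Cy5 (correlation 0.846 to 0.993, medians -0.12 to -0.05 on OCI-Ly3 arrays).

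The log10 ratio was turned to log2(siFOXP1/siCtrl). Control spots (1639 of 45015) and 148 to 260 outlier spots per OCI-Ly3 array were dropped. Replicate spots were averaged and the brightest probe stood for its gene. A limma model (3.58.1, R 4.3.3) of all 24 arrays estimated each siRNA in each line, with Benjamini-Hochberg adjustment over all genes. Feature Extraction sets some ratios at background to 0, which narrows the spread of genes that are dim in the other lines. Of the 730 called genes 651 also passed on the 6 arrays alone. Replicates came from 3 independent experiments. Deviations of arrays with the same number correlated at 0.37, 0.23 and 0.22 over genes bright in both channels. Over all genes they correlated at 0.08, 0.05 and 0.05. Numbers were taken as pairs in the replicate block alone. The main fit, with its counts and p-values, treated the 6 arrays as independent. Number of arrays limits the precision, and arrays give no count of reads.

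Genes were named by rank: the 12 greatest rises and falls bright in both channels and in the same direction on 6 arrays, the 6 greatest in each direction of the single-channel genes past 2-fold and of the differences between siRNAs and between lines, and called members of 34 lists. The lists and members were chosen with earlier results of these data known. Names are those of the array, of which 16806 matched a current RefSeq record (2458 under another symbol). Coordinates of probes are hg18. Alternatives were normexp (offset 50) with loess or median centring, the deposited matrix, the filters on dim probes, the mean over probes, fewer arrays, blocks for replicate or slide, each siRNA alone, the methods' t-test, outlier spots kept, ratios of 0 left out and a channel above background on all 24 arrays (both chosen after seeing the data), and leaving out replicates. Some genes are not reported here. The fit was tested on simulated data. Columns of per-sample values not used numbered 0.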

Additional observations from a re-analysis of the deposited data

Results flagged for a closer look

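Genes were put here because a direct test found their effect to differ between the siRNAs or between OCI-Ly3 and the other lines. Between the siRNAs in OCI-Ly3, siFOXP1 #2 minus #1 was 0.95 for KMO, 0.92 for KAT2B, 0.83 for CD24, 0.81 for EIF2C4 and 0.78 for CLMN, with limma adjusted p from 0.0118 to 0.0485. It was -1.21 for FST, -0.97 for FOXP1, -0.95 for ODZ4, -0.86 for FN1, -0.74 for SLC45A1 and -0.60 for CHCHD3, with limma adjusted p from 1.51e-06 to 0.00697. All 11 missed the threshold on the 6 arrays alone, FOXP1 missed it without replicate 1, KAT2B without replicate 3, and KMO, CD24, EIF2C4 and CLMN also missed it when any of the 3 replicate numbers was left out.

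Against the mean of the other lines, the greatest differences above it were 3.21 for C12orf42, 2.11 for FCGBP, 2.02 for TRIM49, 1.87 for IL15, 1.78 for LGALS2 and 1.72 for MBOAT1, with limma adjusted p of at most 7.18e-05. The OCI-Ly3 mean of TRIM49 was -0.44, and its HBL-1 mean -3.21. The greatest differences below were -1.38 for CXCR4, -1.26 for AK055214, an array name that is no gene symbol, -1.22 for CXCL9, -1.21 for TPRG1, -1.18 for DAAM1 and -1.17 for IGJ, with limma adjusted p of at most 0.0132. The difference of TPRG1 missed the threshold without replicate 1, 2 or 3. LGALS2, MBOAT1, IL15, CXCL9, CXCR4 and TPRG1 were dim on some or all arrays of the other lines. C12orf42 had both channels above background on 6 of the 18 other arrays and TRIM49 on 4, with TRIM49 dim on 1, so that the sizes of their differences rest on a dim channel.

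Among list members called in OCI-Ly3 and above background on all 24 arrays, the MHC class II genes HLA-DMB, HLA-DRB3, HLA-DOA and HLA-DRB5 stood 0.75, 0.62, 0.61 and 0.56 above the mean of the other lines. The median of the class II list was 0.40 in HBL-1 and -0.14 in DB and K422. MS4A1 of the surface antigens, PIK3R1 and NFATC1 of receptor signalling, LTB of the NF-kB list and DENND3 of the GCB signature also stood higher. They were 0.56, 0.57, 0.56, 0.53 and 0.68 above the mean of the other lines, in that order. The transcription factor KLF2 stood 1.17 above that mean. In OCI-Ly3 itself KLF2 rose by 0.60, a call kept in 10 alternatives and lost in 12. The interferon-stimulated genes EPSTI1, GBP4 and SAMD9L stood 0.79, 0.78 and 0.64 above, and PFKFB3 0.65. LPP and RGS2 lay below the other lines, at -0.68 and -0.52, and LPP, which rose by 0.54 in OCI-Ly3, was at 2.07 in K422. Limma adjusted p of these ran from 2.49e-06 to 0.0209.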

How the results depend on the processing

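FOXP1 kept its direction and call under every alternative, between -2.45 with siFOXP1 #2 alone and -1.48 with #1 alone, and between -2.01 and -1.93 when a replicate or an array was left out. The 511 higher genes became 237 under normexp with loess, 147 under normexp with median centring, 845 without a filter on dim probes and 333 with siFOXP1 #2 alone, and ran from 426 to 503 when a replicate or an array was left out. The 219 lower genes became 71, 120, 487 and 125 in the same order, and ran from 190 to 214. The methods' t-test with Benjamini-Hochberg adjustment, at the same log2 limit, called 449 higher and 196 lower genes. The 34 genes that differed between siRNAs were 0 under normexp with median centring, 15 in the deposited matrix, 58 without the filter, 1 on the 6 arrays alone, 52 without DB, 70 with the replicate block, 9 with ratios of 0 left out, and 18 to 32 when a replicate or an array was left out, the lowest without replicate 1. The 319 genes that differed from the other lines were 154 under normexp with loess, 127 under normexp with median centring, 550 without the filter, 651 without DB, 140 with siFOXP1 #1 and 160 with #2 alone, 142 with a channel above background on all 24 arrays, and 233 to 278 when a replicate or an array was left out. Fewer arrays or genes entered some of these fits, and the cause of the other changes was not tested. The replicate block also moved 4 of 36 counts of called list members by over 1.5 times (immediate early, RGS, costimulatory, and T and NK genes). It ended the calls of LGMN, OAS2, RGS1, TPRG1 against the other lines, and the dim EGR2, VTCN1 and GZMA.

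Of 138 results for single genes the sign turned once, in TRIM49 OCI-Ly3 minus other lines under normexp with median centring (-0.00598). Calls of 46 of the 138 were lost when some replicate or array was left out, and 92 kept theirs in all 9 such fits. Normexp with median centring ended 63 calls and normexp with loess 46. Limits are the single dye orientation, the single line, changes close to the limit, and the dim genes. The median of genes bright in both channels moved by under 0.1 between scalings, from -0.03 to 0.00.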
